A study of Arabidopsis thaliana with 2 samples.

Results

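Basic helix-loop-helix (bHLH) factors were followed in dissected leaf margins of *Arabidopsis thaliana* on Affymetrix ATH1 arrays, which carry 1 or more sets of short probes for each gene. The genes were taken by name, namely all nuclear genes whose symbol or synonym in RefSeq holds bHLH or helix-loop-helix, together with *SPCH*, *MUTE* and *FMA*. Of 37 such genes in RefSeq, 10 had a probe set of their own in the annotation used here, out of 13356 such measured genes in all. The 10 are *SPCH*, *MUTE*, *FMA*, AT1G22490 (*bHLH94*), *ILR3* (*bHLH105*), *bHLH34*, *bHLH104*, *bHLH115*, *bHLH121* and *BHLH101*, and each was read by 1 probe set that the array design does not mark as shared between genes. The other 27 genes, among them *FRU*, *BHLH100*, *bHLH38*, *bHLH39*, *TT8* and *PAR1*, were not analysed here.

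The samples are 2 biological replicates of 1 group, Ler plants that carry *35S:miR319a* and *35S:amiR-NGA*, both driven by the constitutive 35S promoter. These transgenes reduce the *CIN-TCP* and *NGATHA* genes, and the genotype comes from the study's methods, since the labels give only ecotype and tissue. Margins were cut from mature leaves of plants grown in soil at 23°C with 16 h light and 8 h dark, as the labels have it. The methods of the study name a shorter day and a lower temperature for its leaf analyses, with no separate condition for the array plants, and call the sampled leaves only older. No other genotype or tissue was analysed here, so no value below measures an effect of the transgenes, and no test between conditions was made. A strip of margin holds several cell types, and fewer cells of a type and less RNA per cell cannot be told apart in it.

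bHLH proteins bind DNA as dimers. A basic stretch contacts the E-box, and the helix-loop-helix next to it holds the partners together. In the leaf epidermis *SPCH*, *MUTE* and *FMA* act one after another. *SPCH* starts the stomatal lineage, *MUTE* ends its asymmetric divisions and turns the meristemoid into a guard mother cell, and *FMA* (*FAMA*) stops division and lets the guard cells form. All of them pair with ICE1 (SCREAM) or SCRM2, whose genes were not analysed here. A second set of bHLH genes controls iron supply. ILR3, bHLH34, bHLH104 and bHLH115 are close relatives that work as dimers with each other and with bHLH121, and they switch on iron deficiency genes such as *BHLH101* and *PYE*.

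Signals are MAS5 intensities on a linear scale, 1 per probe set and array, and the median of all 22810 probe sets was 50.0 in both arrays. Probe sets differ in brightness, so the signal of one gene was not ranked against that of another. The background bound of an array was the 95th percentile of 6 genes of pollen, anther and root hairs, and it was 7.21 in replicate 1 and 18.3 in replicate 2. A gene was called above background where it passed the bound in both arrays. Among genes that did so, the log2 ratio of replicate 2 over replicate 1 had an SD of 0.678 and the median difference was 1.32-fold. The ratio of 3′ to 5′ signal was 8.10 and 14.3 for the actin control, 1.104 and 1.523 for GAPDH and 1.66 and 3.04 for ubiquitin in replicates 1 and 2, and the part of this difference in the values below was not tested.

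Of the 10 bHLH genes, 7 passed the bound in both arrays, where 60.1% of all genes did. In replicate 1 all 10 passed, against 70.3% of all genes, and in replicate 2 the same 7 passed, against 61.2%. The 3 that passed in replicate 1 alone were *MUTE*, AT1G22490 and *BHLH101*, and none of the 10 was below the bound in both arrays. Of all 13356 genes, 1358 passed in replicate 1 alone and 3828 were below the bound in both arrays. With the highest of the 6 genes as the bound the count was again 7, where 58.4% of all genes passed. It was 6, without *FMA*, with the median of all probe sets (41.6% of all genes), with a longer list of pollen, embryo sac and root genes (39.7%) and with the *B. subtilis* control probe sets (38.5%). With so few genes, 7 of 10 is near the share of all genes and is no result about bHLH factors.

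**Figure D1:**
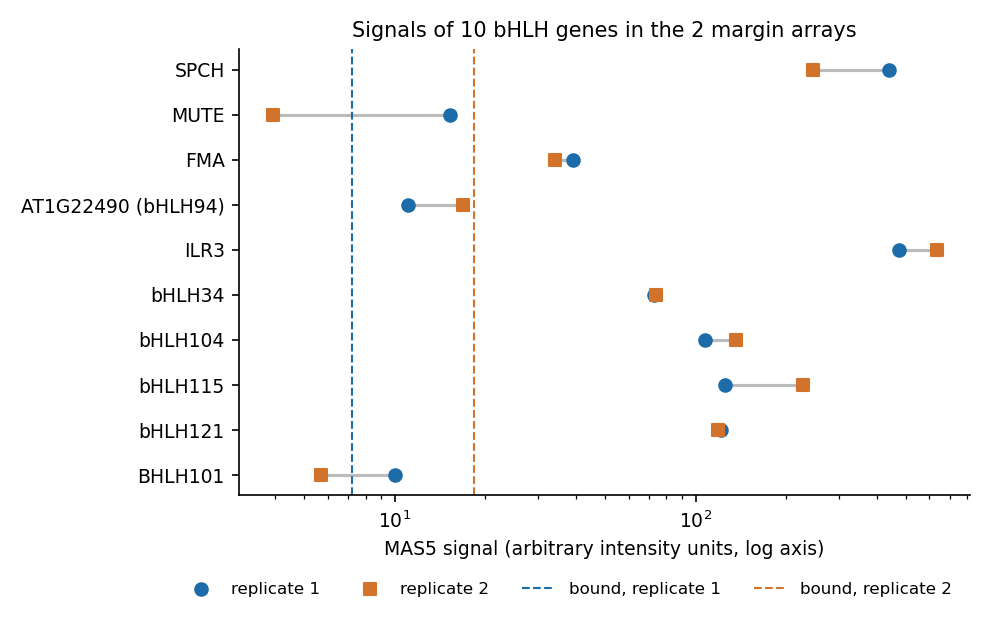
MAS5 signal (x axis, log scale, intensity units) of each of the 10 bHLH genes (y axis) in replicate 1 (blue circles) and replicate 2 (orange squares), with the background bound of each array as a dashed line of the same colour. In replicate 2 *MUTE*, AT1G22490 and *BHLH101* lie left of the bound of 18.3, and the other 7 genes lie right of the bound in both arrays.

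*SPCH* had a signal of 439.7 in replicate 1 and of 245.0 in replicate 2, with a mean of 342.3 ± 137.7 (SD, n = 2). Both arrays were far above background, at 61.0 times the bound in replicate 1 and 13.4 times in replicate 2. The transcript of the gene that opens the stomatal lineage was thus read well above background in both replicates of the margin strips. It remained above under each of the other bounds tried, including the strictest in each array, 60.4 in replicate 1 and 69.4 in replicate 2.

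*MUTE*, which acts next, gave a signal of 15.2 in replicate 1 and of 3.92 in replicate 2, with a mean of 9.57 ± 7.99 (SD, n = 2). The first value was 2.11 times the bound of its array and the second 0.214 times. With the bound from the 6 genes, the arrays therefore differ in whether *MUTE* was read above background at all. Both of its signals were at background when judged by the median of all probe sets, by the longer list and by *B. subtilis* probe sets. The log2 ratio of *MUTE*, -1.96, had a larger size than that of 99.0% of the genes above the bound in both arrays. *MUTE* is not one of those genes, and their log2 ratios had an SD of 0.678, against 1.11 over all probe sets. With signals under the higher bound set to it, both values of *MUTE* came to that bound and the log2 ratio was 0.

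*FMA*, the last of the series, had a signal of 39.1 in replicate 1 and of 34.1 in replicate 2, with a mean of 36.6 ± 3.50 (SD, n = 2). These values were 5.42 and 1.86 times the bound, and the arrays differed by 1.15-fold. *FMA* lay under 3 of the other bounds in at least 1 array, namely the median (50.0 in each array), the longer list (60.4 and 47.8) and the *B. subtilis* controls (27.9 and 69.4). Under each of these *SPCH* was the only one of the 3 genes above background. Another gene, AT1G22490 (*bHLH94*), belongs to the same subgroup of plant bHLH proteins as SPCH, and it lay close to the bound at 11.1 in replicate 1 and 16.8 in replicate 2, 1.53 and 0.920 times the bound.

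*SPCH*, *MUTE* and *FMA* were each lower in replicate 2, with log2 ratios of -0.84, -1.96 and -0.20. After quantile normalization the log2 ratios were -0.97, -2.38 and -0.27. The direction was thus shared by the genes of this series on both scales, although the log2 ratio of *FMA* was within the SD of 0.678 between the arrays and that of *MUTE* rests on a signal below background. Over all genes 64.2% were higher in replicate 2, and 53.9% after quantile normalization.

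Of 29 other genes of the stomatal pathway listed for their role, 2 had a probe set of their own, and both were above the bound in both arrays, as were 60.1% of all genes. *STOMAGEN* encodes a peptide that is made in the mesophyll and promotes stomata in the epidermis above it. Its signal was 355.5 in replicate 1 and 629.6 in replicate 2, a log2 ratio of 0.82, or 0.65 after quantile normalization. *AGL16*, a MADS-box gene linked to the divisions of satellite meristemoids, had a signal of 101.1 and 91.8, a log2 ratio of -0.14. *STOMAGEN* was thus higher in the array where *SPCH* was lower.

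Of the 3 mesophyll markers measured, 2 were higher in replicate 2 on the deposited scale, like *STOMAGEN* and 64.2% of all genes. The antenna gene *LHCB4.1* had a signal of 2105 in replicate 1 and of 3713 in replicate 2, and the Rubisco activase gene *RCA* of 1996 and 2887, whereas *LHCB4.3* was lower there, at 70.1 and 53.1. The sum of these 3 of 5 listed markers was 4172 in replicate 1 and 6653 in replicate 2. After quantile normalization the log2 ratio was -0.07 for *LHCB4.1*, -0.28 for *RCA* and -0.38 for *LHCB4.3*, while *SPCH* stayed lower and *STOMAGEN* higher in replicate 2. The part of mesophyll tissue in these differences was not tested, and none of the listed markers of epidermis, guard cells, vascular tissue or the margin itself had a probe set of its own.

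**Figure D2:**
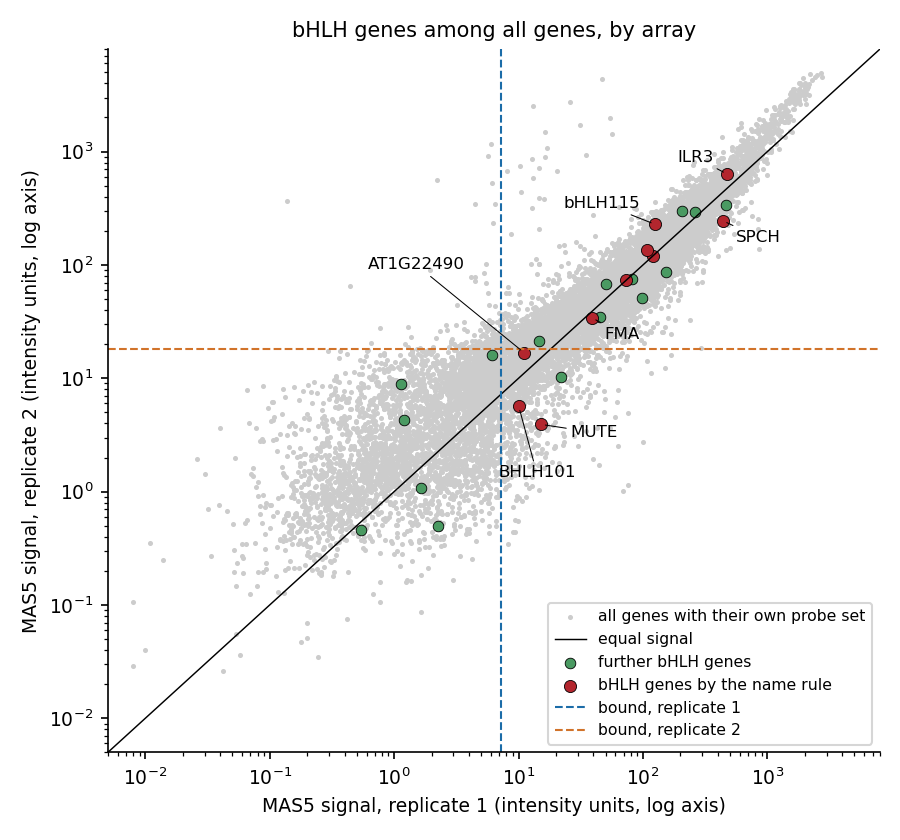
MAS5 signal in replicate 1 (x axis) against replicate 2 (y axis), both log scales in intensity units, for all 13356 genes (grey), the 10 bHLH genes chosen by name (red) and 16 further bHLH genes (green), with the line of equal signal and the bound of each array (dashed). *SPCH* lies under the line of equal signal at 439.7 and 245.0, and *bHLH115* and *ILR3* lie over it.

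The 4 related iron regulators all passed the bound in both arrays, which 60.1% of all genes did, so the count of so few genes is no result about them. *ILR3*, whose mutant was found by its resistance to an auxin conjugate, had a signal of 474.0 in replicate 1 and of 633.6 in replicate 2, with a mean of 553.8 ± 112.8 (SD, n = 2). *bHLH34* was at 72.8 and 73.8 (73.3 ± 0.704), *bHLH104* at 107.1 and 136.8 (121.9 ± 21.0), and *bHLH115* at 125.0 and 228.2 (176.6 ± 73.0). The value nearest to its bound was 4.03 times the bound, that of *bHLH34* in replicate 2. All 4 also stayed above under every other bound tried.

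Their signals were equal or higher in replicate 2, with log2 ratios of 0.02 for *bHLH34*, 0.35 for *bHLH104*, 0.42 for *ILR3* and 0.87 for *bHLH115*. The first 3 were within the SD of 0.678 between the arrays, and *bHLH115* was outside it. After quantile normalization the log2 ratios were 0.05, 0.38, 0.21 and 0.86. *bHLH121*, their shared partner, was at 121.1 in replicate 1 and 119.0 in replicate 2, with a mean of 120.1 ± 1.44 (SD, n = 2) and a log2 ratio of -0.02.

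*BHLH101*, which acts downstream of these factors when iron is short, stood near background. Its signal was 10.04 in replicate 1 and 5.66 in replicate 2, with a mean of 7.85 ± 3.10 (SD, n = 2), or 1.39 and 0.309 times the bound. Under each other bound it was not above background in both arrays, and with signals under the higher bound set to it the log2 ratio was 0. *PYE*, a bHLH gene that the same factors control and that represses iron genes, is outside the name rule and was measured at 50.8 in replicate 1 and 68.4 in replicate 2, above the bound in both but not with the bound of the longer list or of the *B. subtilis* controls. With the bound from the 6 genes, the upstream iron factors and *PYE* were above background in both arrays, and *BHLH101* in replicate 1 alone. The iron supply of the plants is not given, and the listed genes of iron uptake, *IRT1* and *FRO2* among them, were not analysed here.

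**Figure D3:**
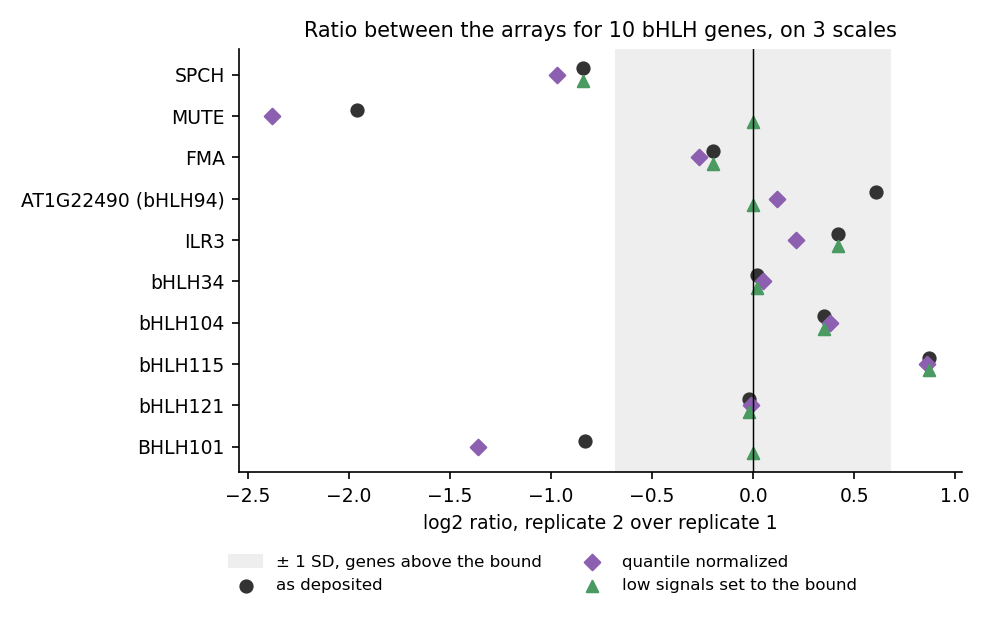
Log2 ratio of replicate 2 over replicate 1 (x axis) for the 10 bHLH genes (y axis) as deposited (black circles), after quantile normalization (purple diamonds) and with signals under the higher bound set to it (green triangles), with the SD of 0.678 among genes above the bound in grey. *SPCH* lies left of the grey band on all 3 scales and *bHLH115* right of it, whereas *MUTE* and *BHLH101* move to 0 once low signals are set to the bound.

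Among the 10 genes, 5 were higher and 5 lower in replicate 2, where 64.2% of all genes were higher. The median log2 ratio of the 10 was 0.00, against 0.28 over all genes. After quantile normalization the counts were again 5 and 5, with 53.9% of all genes higher, and the medians 0.02 and 0.07. With so few genes these counts are no result about bHLH factors. None of the 7 genes above the bound differed by 2-fold or more between the arrays, where 11.3% of all genes above the bound did. The largest differences among the 7 were those of *bHLH115* at 1.83-fold and *SPCH* at 1.80-fold, in opposite directions, and the smallest that of *bHLH34* at 1.01-fold.

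Many bHLH genes carry other names and were missed by the name rule. A list of 93 bHLH genes by role held 9 of the 10 genes above and 16 further ones that were measured singly, while its 68 other genes, with all phytochrome interacting factors, were not analysed here. Of the 16, 9 were above the bound in both arrays, 1 in replicate 1 alone and 6 in neither, or 56.2% above, again near the 60.1% of all genes. Over both sets 16 of 26 bHLH genes were above background in both arrays, against 60.1% of all genes. Measured bHLH genes that neither the name rule nor the list holds were not counted.

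Of 6 listed genes of carpel and fruit 2 were measured, and both passed the bound in both arrays, against 60.1% of all genes. *SPT* (*SPATULA*), which shapes the carpel margin and also restrains the growth of leaves and cotyledons, had a signal of 82.1 in replicate 1 and of 75.5 in replicate 2 (78.8 ± 4.65, SD, n = 2). Its relative *ALC* (*ALCATRAZ*), known for fruit opening, was at 98.6 and 51.1, above the bound in both arrays with a log2 ratio of -0.95, but not above that of the *B. subtilis* controls in replicate 2. *ALC* was lower in replicate 2 after quantile normalization too, at -0.93.

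Of 13 listed genes of brassinosteroid response and cell elongation 2 were measured. Of these, 1 was above the bound in both arrays, against 60.1% of all genes. This was *BIM1*, a partner of the brassinosteroid factor BES1, with a signal of 153.6 in replicate 1 and of 87.2 in replicate 2. The other, *BPEp* (*BIG PETAL*), which limits cell expansion in petals, gave 22.1 in replicate 1, and in replicate 2 its 10.2 did not reach the bound. With signals under the higher bound set to it, the log2 ratio of *BPEp* was -0.27.

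Of 7 listed genes of jasmonate response 3 were measured. The jasmonate factor *MYC3* was at 204.7 and 297.1, and *MYC4*, which acts with it, at 44.8 and 35.0. *MYC3* and *MYC4* were above the bound in both arrays, as were 60.1% of all genes. *MYC4* was not above background in both arrays with the bounds of the median, the longer list or the *B. subtilis* controls. *MYC3* was higher and *MYC4* lower in replicate 2, with log2 ratios of 0.54 and -0.36, both within the SD between the arrays. The other measured entry of the list, AT4G00870, which RefSeq leaves unnamed, was below the bound in both arrays at 0.541 and 0.456.

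*ATMYC1*, a bHLH gene that promotes trichome initiation, had a signal of 469.1 in replicate 1 and of 339.4 in replicate 2 (404.2 ± 91.7, SD, n = 2). Of 8 listed genes of the trichome complex, only *TRY*, an inhibitor of trichome fate in neighbouring cells, had a probe set of its own, at 32.4 in replicate 1 and 68.8 in replicate 2. *ATMYC1* and *TRY* passed the bound from the 6 genes in both arrays, as 60.1% of all genes did. *TRY* was not above background in both arrays with the bounds of the median, the longer list or the *B. subtilis* controls. The log2 ratio was -0.47 for *ATMYC1*, within the SD of 0.678 between the arrays, and 1.08 for *TRY*, and after quantile normalization these were -0.63 and 1.05.

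*LHW* (*LONESOME HIGHWAY*), needed for the divisions that widen vascular tissue, was at 261.4 in replicate 1 and 291.1 in replicate 2 (276.2 ± 21.0, SD, n = 2). *NAI1*, which forms ER bodies, lay slightly above the bound at 14.6 and 21.5, and under the median of all probe sets, the longer list or the *B. subtilis* controls it was not above background. Both thus passed the bound in both arrays, as 60.1% of all genes did, *NAI1* by 1.17 times in replicate 2.

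Other bHLH genes of the list were at background. *AMS*, a regulator of the anther tapetum, was at 1.13 in replicate 1 and 8.96 in replicate 2, and *UPB1*, which sets the end of division in the root, at 1.65 and 1.09. Both were under the bound in both arrays. The same holds for 4 loci of the list that RefSeq leaves unnamed, AT1G06170, AT2G14760, AT2G31210 and AT4G00870, with signals from 0.541 to 6.08 in replicate 1, and from 0.456 to 15.9 in replicate 2.

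**Figure D4:**
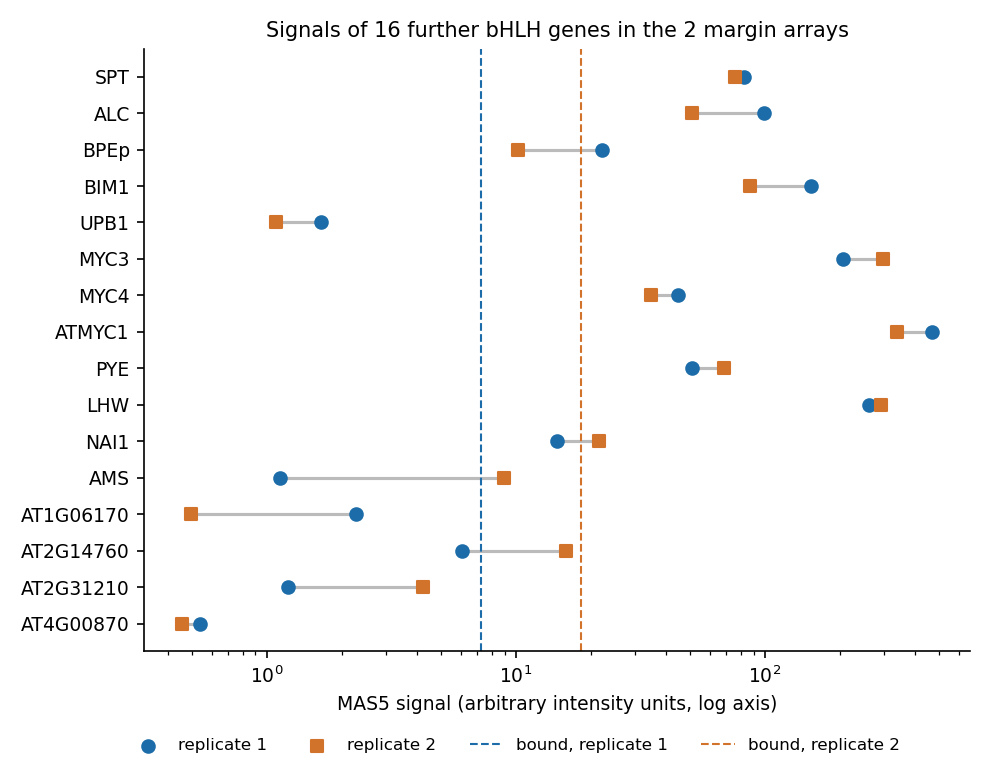
MAS5 signal (x axis, log scale, intensity units) of the 16 further bHLH genes (y axis) in replicate 1 (blue circles) and replicate 2 (orange squares), with the bound of each array as a dashed line of the same colour. *SPT*, *ALC*, *BIM1*, *MYC3*, *MYC4*, *ATMYC1*, *PYE*, *LHW* and *NAI1* lie above the bound in both arrays, and *AMS*, *UPB1* and the 4 unnamed loci lie below it in both.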

How the data were processed

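RNA of margin strips from 2 biological replicates was hybridized to Affymetrix ATH1 arrays, 1 array each. The authors deposited 1 intensity per probe set, obtained and normalized with MAS5, with R 2.7.2 among the tools in the submitters' processing notes. Detection calls were not used here. Probe sets were named from the platform annotation, which gives 1 gene for 13513 of 22810 probe sets, several for 503 and none for 8794, and 13436 of the first were matched by Gene ID to RefSeq of TAIR10.1, used for names and gene order only. RefSeq synonyms stood in for gene descriptions, which the table used here lacks. Where a gene had several probe sets, the one with the highest mean over both arrays stood for it. Probe sets of several genes named none.

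Signals were compared with the 95th percentile of *MGH3*, *ANX1*, *ANX2*, AT5G07230, *EXPA7* and *EXPA18*. No pseudocount was added to log2 ratios. With 2 arrays of 1 group, each SD rests on 2 values, the number of arrays limits the precision, and no p-value is given. The bHLH genes and role lists were chosen with earlier results of these data known. The bHLH genes named are those measured under the name rule or the role list, and bHLH genes outside both were not looked for. The measured genes of the stomatal, marker and partner lists are named too. Alternatives were other bounds, quantile normalization, the lowest probe set, a pseudocount of 16, a filter on low values and each array alone. For the further bHLH genes they were applied after seeing the data. Counts and ratios were tested on simulated data. Python 3.11.15, numpy 2.4.6, pandas 2.3.3 and matplotlib 3.10.9 were used.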

Additional observations from a re-analysis of the deposited data

How the results depend on the processing

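The bound limits the calls, since it rests on 6 genes and is 18.3 in replicate 2 against 7.21 in replicate 1. Of *SPCH*, *MUTE* and *FMA*, 2 were above background in both arrays, and this count was 1 when the bound came from the median of the probe sets, the longer reference list or the *B. subtilis* controls. The longer list gave 9 measured genes, and *PLIM2b*, at 91.7 and 58.1, was the highest of them in both arrays. Of the further bHLH genes, 9 were above background, and 5 with the *B. subtilis* controls. Over all genes the share above background was 60.1% with the bound from the 6 genes. It was 41.6% with the median, 39.7% with the longer list and 38.5% with the *B. subtilis* controls. The cause of these moves was not tested. The counts stayed within 1.5 times under the other alternatives. Over the single arrays they ranged from 7 to 10 for the 10 bHLH genes, 2 to 3 for the stomatal lineage and 9 to 10 for the further genes. For the 10 genes the count was 6 or 7 under the other bounds and scales, and 7 with the description match alone. The stomatal pathway count of 2 was the same throughout. The median log2 ratio of the 10 genes lay between 0 and 0.02, and the mean of each of these 10 moved by less than its SD under quantile normalization. No paired analysis was possible because the arrays form 1 group.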

Other observations

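*SPCH* and *TRY* are neighbours in the genome, as RefSeq orders the protein-coding genes of TAIR10.1, and both are read by this array. Their log2 ratios of replicate 2 over replicate 1 ran opposite ways, at -0.84 and 1.08. On the other side of *SPCH*, AT5G53220 had a signal of 60.0 in replicate 1 and of 49.6 in replicate 2. *MUTE*, at 15.2 and 3.92, lies beside AT3G06130, which was at 238.0 and 336.9. *FMA* lies between AT3G24130, at 0.577 and 2.92, and AT3G24150, at 93.1 and 79.1. *BHLH101*, at 10.04 and below the bound at 5.66, lies beside AT5G04160, which was at 132.8 and 67.8. These pairs were looked at after the signals of the bHLH genes had been seen.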
